A study of Homo sapiens with 9 samples.

Results

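Collagens, laminins and the enzymes that cross-link or cut them make up the extracellular matrix, and 46 genes of this kind were followed across 3 groups of lung cancer cells. They were chosen by function: fibrillar collagens, collagen IV chains, other collagens, laminin chains, the linkers of the basement membrane, matricellular proteins, lysyl oxidases, metalloproteinases and the tissue inhibitors of metalloproteinases. Each gene was represented by 1 array probe, the one with the highest mean over the 9 arrays among the probes whose RefSeq transcript belongs to the gene, which took 46 of the 21743 genes named on the array and drew on 59 of its 50599 probes.

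The cells were A549, a human lung adenocarcinoma line. Parental A549 (3 arrays, passages 98, 98 and 99) carried no added factor. OSK-A549-Colony (3 arrays, all from later passages) came from picked colonies that formed after retroviral transduction of A549 with OCT3/4, SOX2 and KLF4, and OSK-A549-SN (3 arrays, the same passages) came from the spindle-shaped cells around those colonies, which had received the same retroviruses and detached first in trypsin. Neither transduced group was made of parental cells carried to the same passage, so passage and transduction cannot be told apart, and the arrays held no group transduced with an empty virus. The separation of SN cells from colony cells was itself made on detachment from the dish.

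Basement membrane is the thin sheet under epithelial cells. Its network is built from collagen IV, whose chains assemble in fixed combinations (COL4A1 with COL4A2; COL4A3 with COL4A4 and COL4A5; COL4A5 with COL4A6), and from laminins, each made of an alpha, a beta and a gamma chain, with nidogen, perlecan and agrin as linkers. Fibrillar collagens form the fibres of the stroma and are made mostly by fibroblasts, lysyl oxidases cross-link collagens, metalloproteinases cut them, and the inhibitors block the metalloproteinases. In lung adenocarcinoma the epithelial cells keep making basement membrane components, while much of the fibrillar matrix comes from the surrounding stroma.

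The genes of collagen IV lie in pairs that point away from each other and share the stretch between their start sites, so the sequences around those starts are shown before the values. RefSeq windows of the assembly GRCh38.p14 run from 250 bases before to 50 bases after a gene's start, and 33 of the 46 genes had one. The bases before the start are printed 5′ to 3′ on the strand of the gene, and for COL4A1 and COL4A2, whose starts lie 127 bases apart, the 126 bases between them are printed once on the plus strand. Capitals mark matches on either strand to 4 short motifs, the GC box GGGCGG, the CCAAT box, the TATA box TATAAA and the AP-1 motif TGANTCA. No printed match overlaps another.
COL4A1-COL4A2, between the starts, chr13:110307158-110307283, plus strand: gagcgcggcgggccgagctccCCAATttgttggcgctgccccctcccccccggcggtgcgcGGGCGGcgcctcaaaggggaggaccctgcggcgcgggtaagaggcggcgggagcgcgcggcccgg
COL4A3, chr2:227164374-227164623, plus strand: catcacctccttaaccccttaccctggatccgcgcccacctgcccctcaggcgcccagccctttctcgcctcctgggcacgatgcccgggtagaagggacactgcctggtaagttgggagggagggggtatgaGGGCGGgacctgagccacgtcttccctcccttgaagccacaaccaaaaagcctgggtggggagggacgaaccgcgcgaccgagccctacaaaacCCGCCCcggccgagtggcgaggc
COL4A4, chr2:227164206-227164455, minus strand: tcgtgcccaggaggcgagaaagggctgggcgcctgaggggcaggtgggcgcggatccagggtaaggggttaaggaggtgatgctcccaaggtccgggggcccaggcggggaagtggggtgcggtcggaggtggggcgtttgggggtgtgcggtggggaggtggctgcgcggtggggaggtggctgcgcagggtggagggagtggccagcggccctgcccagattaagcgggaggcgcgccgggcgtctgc

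The COL4A1-COL4A2 stretch held 1 CCAAT box and 1 GC box. COL4A3 had 2 GC boxes and COL4A4 none of the 4 motifs, although their starts lie only 419 bases apart and their windows share 82 bases. COL4A5 and COL4A6, whose starts are 380 bases apart, had 2 and 3 CCAAT boxes in their full windows and no GC box. In the windows of all 27305 genes with one, the GC box was found in 44.6%, the CCAAT box in 35.7%, the TATA box in 12.0% and the AP-1 motif in 7.76%, against 21, 13, 6 and 4 of the 33 matrix genes. A match is a description of the letters and not a measured binding site.

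Each intensity is given on a scale on which the 75th percentile of every array was set to 240.7, the geometric mean over the arrays, and the values of different probes are not compared with each other. The 75th percentile before scaling lay between 217.5 and 270.6, and 25808 to 29315 probes per array were detected, which here means that the signal was positive, significant and clearly over the background around the spot. Replicate arrays correlated at 0.983 to 0.993 in parental A549, 0.994 to 0.997 in OSK-A549-Colony and 0.987 to 0.996 in OSK-A549-SN over 23758 probes, and the median SD of a probe on the log2 scale was 0.21, 0.09 and 0.16. The 6 epithelial markers examined (EPCAM, CDH1, KRT7, KRT8, KRT18, KRT19) were detected on every array, while none of the 6 markers of fibroblasts and mesenchymal stem cells (DCN, LUM, PDGFRA, PDGFRB, THY1, FAP) was detected on any, their summed intensity being 21.4 to 24.0 in parental A549, 18.1 to 28.6 in OSK-A549-Colony and 21.9 to 27.4 in OSK-A549-SN. The blood markers PTPRC, CD14 and CD68 were detected on all arrays, with sums of 836.4 to 2157 in parental A549, 1019 to 1169 in OSK-A549-Colony and 1273 to 1546 in OSK-A549-SN. In OSK-A549-Colony against parental A549, the blood marker CD68 was called as higher (log2 1.04, limma adjusted p = 0.0272), while PTPRC and CD14 had log2 fold changes of -0.57 and -0.74 (limma adjusted p = 0.0765 and 0.304). None of the 6 epithelial markers was called there. CDH1 had a log2 fold change of -0.996 (limma adjusted p = 0.0318), without overlap, and missed only the fold of 2. The log2 fold changes of the others were -0.38 for EPCAM, -0.36 for KRT8, -0.24 for KRT18, 0.15 for KRT7 and 1.18 for KRT19 (limma adjusted p from 0.0625 to 0.677). In OSK-A549-SN none of these 9 markers was called, CD68 (log2 1.03, limma adjusted p = 0.0577) being higher and CDH1 (-0.83, limma adjusted p = 0.0860) lower than parental A549 without overlap, and the other 7 overlapping it. The part of these markers in the matrix results was not tested. Of the endothelial markers VWF and CDH5 were detected on all arrays, KDR on 1 OSK-A549-SN array and PECAM1 and TEK on none, with sums of 48.5 to 64.3, 53.9 to 58.9 and 63.5 to 109.1.

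Of the 46 matrix genes, 25 were detected on all 9 arrays, 10 on some and 11 on none. All 7 laminin chains and all 6 collagen IV chains were measured on at least some arrays, with the laminin chains and 5 of the collagen IV chains on every array. The 11 that were not detected on any array were the fibrillar collagen chains COL1A2 and COL3A1, COL6A3, COL8A1, the linker NID1, the matricellular protein POSTN, the lysyl oxidases LOX and LOXL1, the metalloproteinases MMP2 and MMP3, and ADAMTS1. Their intensities lay between 1.86 and 14.7.

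The first comparison asked how the picked colonies differed from the line they came from. In the 3 OSK-A549-Colony arrays set against the 3 parental ones, 34 matrix genes were detected at least once and were tested by limma. A call required a fold change over 2 and a p under 0.05 after Benjamini-Hochberg adjustment over all probes in the fit. COL5A1 and COL4A1 rose and none fell, where 2.09% of all genes tested were called as higher and 1.82% as lower. MMP1 was called as well, which makes 3 of 34 genes, but it was detected in OSK-A549-Colony alone, and without it there were 2. The log2 fold change was positive for 23 and negative for 11 of the 34, with a median of 0.28 beside 0.03 for all genes tested. Restricted to the 27 genes detected on every array of at least 1 group, MMP1 among them, the median was 0.08 beside 0.04 for all genes under the same filter. The positive genes include MMP1, MMP10, COL13A1, COL17A1, TNC and TIMP3, which were detected on no parental array and entered the fit only through OSK-A549-Colony, so their direction was fixed by the filter and their fitted values are no measured folds. The 3 arrays of each group did not overlap for 7 genes that were higher in OSK-A549-Colony and 4 that were lower, which is no larger a share than the 25.8% and 19.7% of all genes tested. The 7 include MMP1 and COL17A1, which were detected on no parental array.

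The second comparison asked the same of the spindle cells. With the 3 OSK-A549-SN arrays against the same parental arrays, limma tested 33 of the genes. COL5A1 and COL4A1 rose and COL4A3 fell, which is 2 of 33 higher against 0.759% of all genes tested and 1 lower against 0.879%. The log2 fold change was positive for 20 and negative for 13, with a median of 0.22 beside 0.09 for all genes. Over the 29 genes detected on every array of at least 1 group, MMP1 and TNC among them, it was 0.18 beside 0.09. The positive genes include MMP1, MMP10, COL17A1, TNC and SPARC, of which the same holds for OSK-A549-SN. Groups did not overlap for 8 higher and 4 lower genes, against 19.8% and 14.5% of all genes. The 8 include COL17A1, TNC, MMP1 and MMP10, which were detected on no parental array, so the count is no result about the matrix genes. Both comparisons used the same parental arrays, so a parental array that stood high or low moved both.

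The third comparison set the colonies against the cells that surrounded them. Here limma called 0 of 35 matrix genes and 0% of the 16648 genes tested, and the smallest adjusted p of a matrix gene was 0.110. At an unadjusted p under 0.05 there were 2 higher and 2 lower matrix genes, against 10.5% and 10.3% of all genes. Of these, COL4A3 also differed over 2-fold, a combination that the fit gave for 1.81% of all genes. SPARC was detected in OSK-A549-SN alone, so its fitted difference is no measured fold. The median log2 difference was 0.06 beside -0.03 for all genes, with 19 genes positive, including COL13A1 and TIMP3 detected in OSK-A549-Colony alone, and 16 negative, including SPARC. Groups did not overlap for 4 genes higher and 4 lower in OSK-A549-Colony, SPARC among the lower, against 16.3% and 16.7% of all genes. Across the 3 groups together, limma's F test passed an adjusted p of 0.05 for COL5A1 (0.0154), COL4A1 (0.0168), COL4A3 (0.0176) and LOXL2 (0.0439), 4 of 35 genes, a share close to the 12.7% of all genes that passed.

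**Figure D1:**
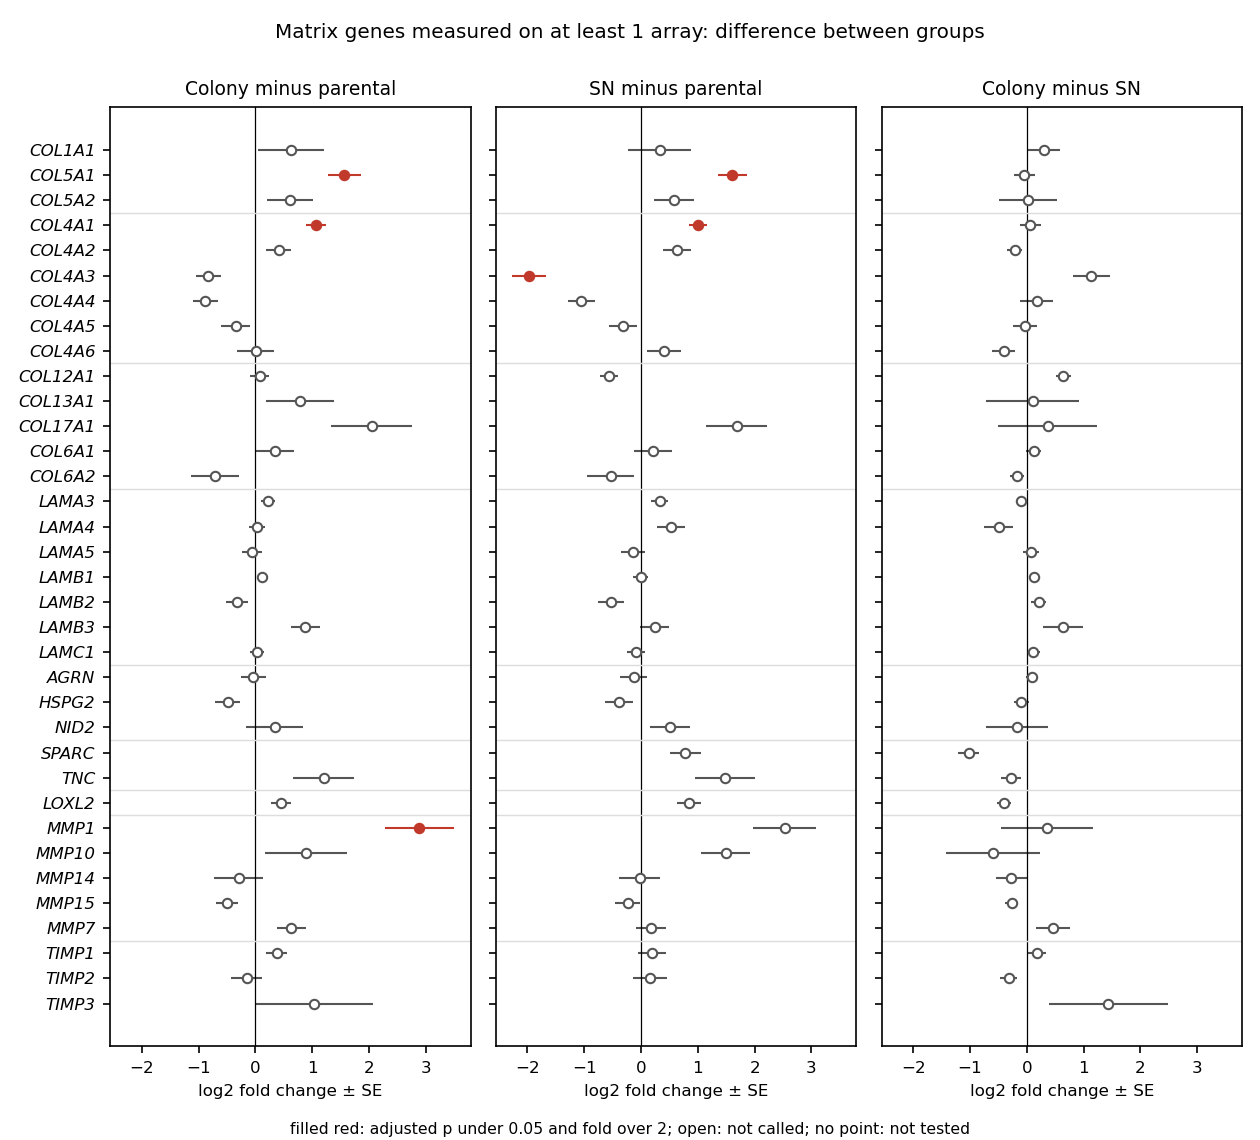
Log2 fold change with its standard error (horizontal axis) for the 35 matrix genes measured on at least 1 array, grouped by role, in the 3 comparisons. Filled red points are the called genes, COL5A1 and COL4A1 in both comparisons with parental A549, MMP1 in the first and COL4A3 in the second; no gene was called between the transduced groups, a missing point means that the gene was not tested there, and points of genes detected in only 1 of the groups compared, such as MMP1 against parental A549, are fitted values and no measured folds.

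Among the fibrillar collagens, COL5A1, a chain of the minor fibrillar collagen that helps start collagen fibres, had the clearest change. Its intensity was 51.5, 59.0 and 96.7 on the parental arrays, 256.3, 170.1 and 175.3 on the OSK-A549-Colony arrays, and 211.0, 211.0 and 186.9 on the OSK-A549-SN arrays. Every transduced array was above every parental array, and the transduced groups overlapped. The log2 fold change was 1.57 ± 0.29 (SE, 3 arrays a group, limma adjusted p = 0.0372) for OSK-A549-Colony and 1.61 ± 0.26 (limma adjusted p = 0.0475) for OSK-A549-SN, folds of 2.96 and 3.05. The second probe of COL5A1 was detected on only 2 of the 9 arrays and gives no measured fold. OSK-A549-Colony and OSK-A549-SN differed by -0.04, with a 95% confidence interval of -0.50 to 0.41.

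The promoter of COL5A1 is shown because this gene was called in both comparisons, with capitals as above.
COL5A1, chr9:134641553-134641802, plus strand: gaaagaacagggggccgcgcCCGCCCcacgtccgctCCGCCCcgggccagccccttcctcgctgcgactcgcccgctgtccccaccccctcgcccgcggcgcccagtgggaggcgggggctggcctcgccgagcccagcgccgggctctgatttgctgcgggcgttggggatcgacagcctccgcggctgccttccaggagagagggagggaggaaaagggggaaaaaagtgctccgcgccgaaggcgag
It held 2 GC boxes and no CCAAT, TATA or AP-1 motif.

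COL5A2, the partner chain of COL5A1, behaved differently from array to array. Its intensity was 414.9, 557.3 and 427.9 in parental A549, 1292, 599.1 and 450.5 in OSK-A549-Colony, and 1177, 576.8 and 487.1 in OSK-A549-SN. Replicate 1 of each transduced group stood over the other two arrays of its group, while replicate 3 lay within the parental range. The log2 fold changes of 0.61 ± 0.41 and 0.58 ± 0.36 did not pass (limma adjusted p = 0.366 and 0.397). COL1A1, a chain of the main collagen of stroma, was detected on 1 array of each group and lay between 3.43 and 17.8 on all 9, and its partner COL1A2 was detected on none.

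Of the 6 collagen IV chains, COL4A1 was called as higher in both comparisons with parental A549 and COL4A3 as lower in OSK-A549-SN. COL4A1, which with COL4A2 forms the collagen IV found in nearly every basement membrane, read 121.9, 143.9 and 133.6 in parental A549, 330.0, 293.2 and 225.4 in OSK-A549-Colony, and 306.2, 273.0 and 227.9 in OSK-A549-SN. The parental arrays were tight and all transduced arrays were above them. The rise was 1.07 ± 0.17 on the log2 scale in OSK-A549-Colony (limma adjusted p = 0.0300) and 1.01 ± 0.16 in OSK-A549-SN (limma adjusted p = 0.0479), folds of 2.10 and 2.01, and the transduced groups differed by 0.06 with a 95% confidence interval of -0.40 to 0.53.

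COL4A2, transcribed from the other side of the 126 bases shown, read 3362, 3967 and 5878 in parental A549, 5882, 5872 and 5383 in OSK-A549-Colony, and 6749, 7546 and 5704 in OSK-A549-SN. Parental replicate 3 lay within the range of the transduced arrays. The log2 fold change was 0.42 ± 0.22 and 0.63 ± 0.25, and neither passed (limma adjusted p = 0.267 and 0.215).

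COL4A3 and COL4A4, chains of the collagen IV of the kidney glomerulus and of the alveolar basement membrane of the lung, had lower means in both transduced groups. COL4A3 read 58.2, 77.5 and 60.4 in parental A549, 46.9, 29.0 and 35.6 in OSK-A549-Colony, and 25.5, 13.2 and 13.4 in OSK-A549-SN, where replicate 2 was not detected. The 3 groups did not overlap, with parental A549 highest and OSK-A549-SN lowest. COL4A3 fell by 1.97 ± 0.30 on the log2 scale in OSK-A549-SN (limma adjusted p = 0.0447), a fitted 3.91-fold difference in which 2 of the 3 OSK-A549-SN arrays were detected, while the difference of -0.83 ± 0.22 in OSK-A549-Colony did not pass (limma adjusted p = 0.0712). With normexp background correction the log2 fold change in OSK-A549-SN was -0.66 (limma adjusted p = 0.0207), under the fold of 2. OSK-A549-Colony was 1.14 ± 0.32 above OSK-A549-SN, with an unadjusted p of 0.0136 and an adjusted p of 0.171 in limma's fit.

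COL4A4 read 1042, 1241 and 1046 in parental A549, 809.5, 555.9 and 481.1 in OSK-A549-Colony, and 695.6, 552.6 and 391.3 in OSK-A549-SN. All parental arrays were above all transduced arrays, and the transduced groups overlapped each other. The log2 fold changes were -0.88 ± 0.22 and -1.06 ± 0.24 (limma adjusted p = 0.0630 and 0.0869), so the gene lay just outside the calls in both comparisons. COL4A5 read 290.5 to 461.3 in parental A549, 247.4 to 387.5 in OSK-A549-Colony and 271.5 to 379.6 in OSK-A549-SN, and COL4A6 155.2 to 331.9, 175.2 to 268.2 and 260.3 to 345.5. Their groups overlapped in both comparisons with parental A549, and neither was called.

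Among the other collagens, COL12A1, a collagen that associates with the surface of fibrils, was the one that separated the transduced groups from each other. It read 575.8, 787.8 and 710.6 in parental A549, 637.6, 709.8 and 837.6 in OSK-A549-Colony, and 460.3, 435.3 and 495.4 in OSK-A549-SN. The OSK-A549-SN arrays were below all others. The colony cells exceeded the spindle cells by 0.64 ± 0.13 (limma adjusted p = 0.116) and the spindle cells differed from parental A549 by -0.57 ± 0.16 (limma adjusted p = 0.130), so none passed. Its second probe gave 1.18 between the transduced groups (limma adjusted p = 0.105), in the same direction but larger.

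COL17A1, a transmembrane collagen of the hemidesmosome, which fixes epithelial cells to the basement membrane, was detected on no parental array and lay between 3.23 and 4.65 there. It read 47.9, 10.9 and 7.27 in OSK-A549-Colony, of which only the first was detected, and 23.4, 13.9 and 5.43 in OSK-A549-SN, of which the first 2 were. The groups did not overlap with parental A549, but the adjusted p-values of limma were 0.124 and 0.153. Of the collagen VI chains, COL6A1 ranged from 165.1 to 395.6 and COL6A2 from 23.9 to 80.2, both highest on parental replicate 3, and their groups overlapped in every comparison. COL13A1 was detected on replicate 1 of OSK-A549-Colony only, at 14.4.

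Among the laminin chains, none was called in any comparison, and LAMB3 had the largest log2 fold change in OSK-A549-Colony. LAMB3 is the beta chain of the laminin that anchors epithelial cells through hemidesmosomes. It read 2534, 2498 and 2346 in parental A549, 6482, 4279 and 3326 in OSK-A549-Colony, and 3875, 3179 and 1979 in OSK-A549-SN. All OSK-A549-Colony arrays were above the parental arrays, while the OSK-A549-SN arrays spanned them. The log2 fold change was 0.88 ± 0.25 (limma adjusted p = 0.0843) and 0.24 ± 0.26 (limma adjusted p = 0.624), and the difference between the transduced groups was 0.64 ± 0.35 (limma adjusted p = 0.360).

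LAMA3, its alpha chain, read 507.2, 644.7 and 572.2 in parental A549, 703.7, 656.3 and 648.9 in OSK-A549-Colony, and 773.8, 707.1 and 673.1 in OSK-A549-SN. The log2 fold changes, 0.23 ± 0.12 and 0.33 ± 0.15, did not pass (limma adjusted p = 0.279 and 0.271). Its second probe, also detected on all 9 arrays, gave larger values of 0.57 and 0.98 that did not pass either (limma adjusted p = 0.0675 and 0.0575). COL7A1, the collagen of the anchoring fibrils that this laminin binds, is not among the 46 genes but belongs to a wider list of 91 matrix genes on the array. It read 774.4, 973.4 and 1613 in parental A549, 3140, 2596 and 2676 in OSK-A549-Colony, and 2376, 2023 and 1737 in OSK-A549-SN. All transduced arrays were above all parental arrays. The gene rose 2.62-fold in OSK-A549-Colony (log2 1.39 ± 0.28, limma adjusted p = 0.0441), and the difference of 0.93 ± 0.30 in OSK-A549-SN did not pass (limma adjusted p = 0.159).

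LAMB3 is shown because its messenger level separated OSK-A549-Colony from parental A549 without a call.
LAMB3, chr1:209652426-209652675, minus strand: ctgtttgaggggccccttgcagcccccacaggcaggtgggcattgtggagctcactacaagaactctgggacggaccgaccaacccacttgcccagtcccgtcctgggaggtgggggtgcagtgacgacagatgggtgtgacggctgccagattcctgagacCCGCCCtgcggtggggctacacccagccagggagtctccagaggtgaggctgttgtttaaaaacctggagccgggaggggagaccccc
The stretch held 1 GC box and none of the other motifs, while LAMA3 had 2 AP-1 motifs in its window.

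**Figure D2:**
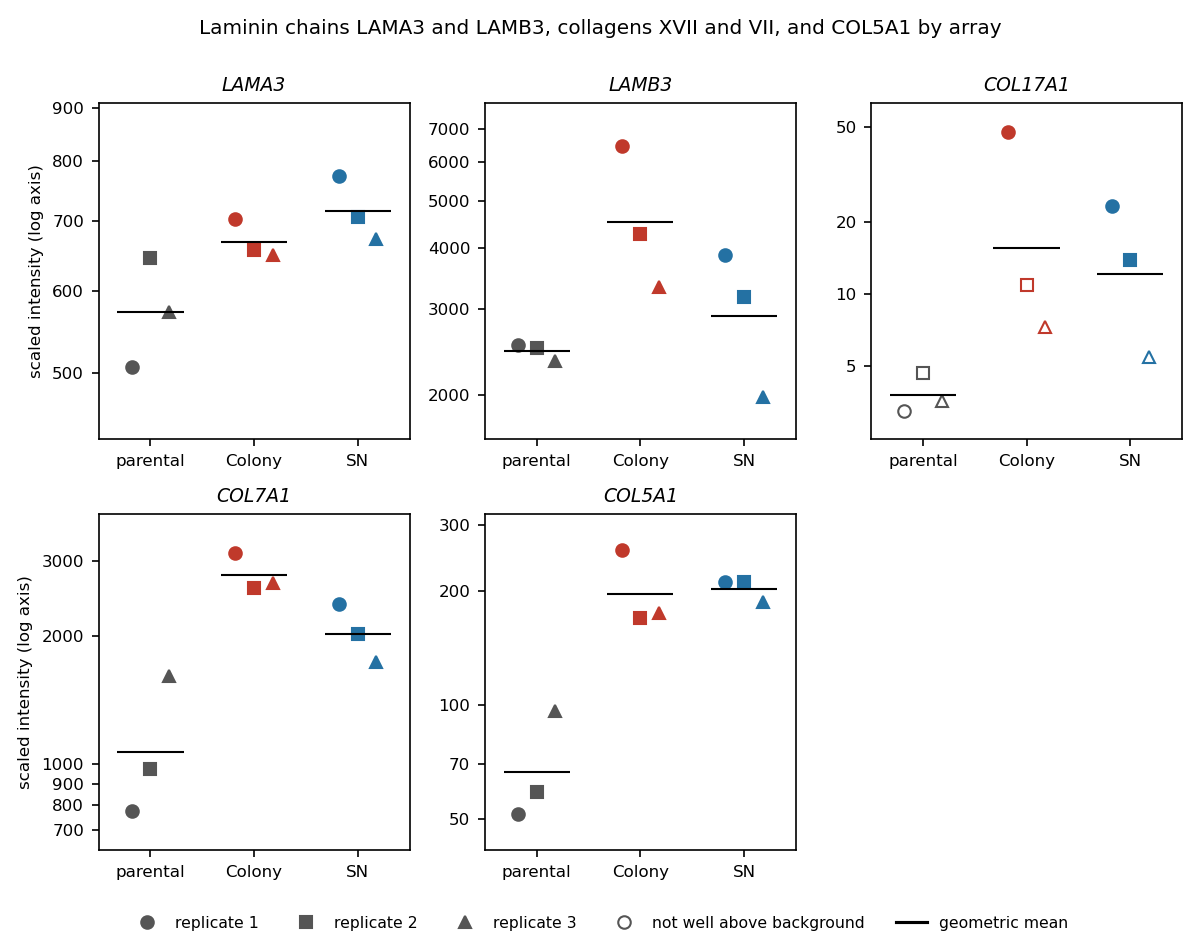
Scaled intensity (log axis, own range in each panel) on the 9 arrays of 2 chains of the epithelial anchoring laminin, of 2 collagens of the same attachment structures and of COL5A1. Symbols and bars are as in the plot of the collagen IV chains; replicate 1 is the highest OSK-A549-Colony array in all 5 panels, and parental COL17A1 is at background.

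In OSK-A549-Colony the other laminin chains differed from parental A549 by less than LAMB3. In OSK-A549-SN, LAMB2 and LAMA4 differed from it by more than LAMB3 did, without a call. LAMB1 and LAMC1, the beta and gamma chains of the most widespread laminins, ranged from 8307 to 10119 and from 1048 to 1427 over the 9 arrays, with log2 fold changes in OSK-A549-Colony of 0.12 ± 0.10 and 0.03 ± 0.13. LAMB1 was higher on every OSK-A549-Colony array than on any OSK-A549-SN array, by 0.13 ± 0.09 (limma adjusted p = 0.437). LAMB2 read 3663, 4163 and 5871 in parental A549, 3532, 3639 and 3581 in OSK-A549-Colony, and 3357, 3386 and 2630 in OSK-A549-SN. The groups lay in that order without overlap, yet neither fold change, -0.32 ± 0.19 nor -0.53 ± 0.22, passed (limma adjusted p = 0.316 and 0.246). LAMA4 ranged from 36.2 to 82.1 and LAMA5 from 1432 to 2273, with overlapping groups.

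Of the linkers, NID2, a nidogen that joins laminin to collagen IV, read 151.9, 233.9 and 261.8 in parental A549, 546.5, 222.5 and 155.0 in OSK-A549-Colony, and 452.9, 291.6 and 204.8 in OSK-A549-SN. As with COL5A2, replicate 1 was the highest array of each transduced group, and the groups overlapped (limma adjusted p = 0.671 and 0.439). The perlecan gene HSPG2 read 6282 to 10902 in parental A549, 5751 to 6632 in OSK-A549-Colony and 5684 to 7545 in OSK-A549-SN, and its 4 probes gave log2 fold changes of -0.79 to -0.40 in OSK-A549-Colony, none of them past 2-fold. The probe at -0.79, which is not the one used, had a limma adjusted p of 0.0346 and the probe used 0.209. AGRN ranged from 1852 to 3281, with overlapping groups.

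Among the matricellular proteins, TNC, a protein of remodelled stroma, was not detected in parental A549 (2.99, 5.41 and 13.04), and read 12.6, 15.9 and 12.8 in OSK-A549-Colony and 14.01, 20.1 and 16.1 in OSK-A549-SN. It was detected on 2 and 3 of these arrays. The bound on its rise in OSK-A549-SN was at least 1.23-fold, from geometric means of 5.95 and 16.6 with each parental array raised to the lowest signal of a detected probe where that was higher. The limma adjusted p of 0.191 belongs to the fitted difference from parental values below background and not to this bound. SPARC, a collagen-binding protein, is named here after its values were seen. It was detected on replicates 1 and 3 of OSK-A549-SN only (13.3, 10.65 and 14.8), and was between 5.41 and 7.64 in OSK-A549-Colony, without a call (limma adjusted p = 0.110). Parental A549 read 5.61, 6.84 and 10.74 and overlapped OSK-A549-SN (limma adjusted p = 0.186).

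LOXL2, a lysyl oxidase that cross-links collagen IV, was the only 1 of the 3 lysyl oxidases among the 46 genes that was detected. It read 1587, 2330 and 2256 in parental A549, 2737, 2782 and 2785 in OSK-A549-Colony, and 4145, 3760 and 3121 in OSK-A549-SN. The 3 groups did not overlap, with OSK-A549-SN highest. The log2 fold changes were 0.45 ± 0.17 in OSK-A549-Colony (limma adjusted p = 0.151) and 0.85 ± 0.21 in OSK-A549-SN (limma adjusted p = 0.0992), and OSK-A549-Colony was 0.40 ± 0.12 below OSK-A549-SN (limma adjusted p = 0.193), so that only the F test over all 9 arrays passed. LOX and LOXL1 were detected on no array and stayed between 2.503 and 6.88.

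**Figure D3:**
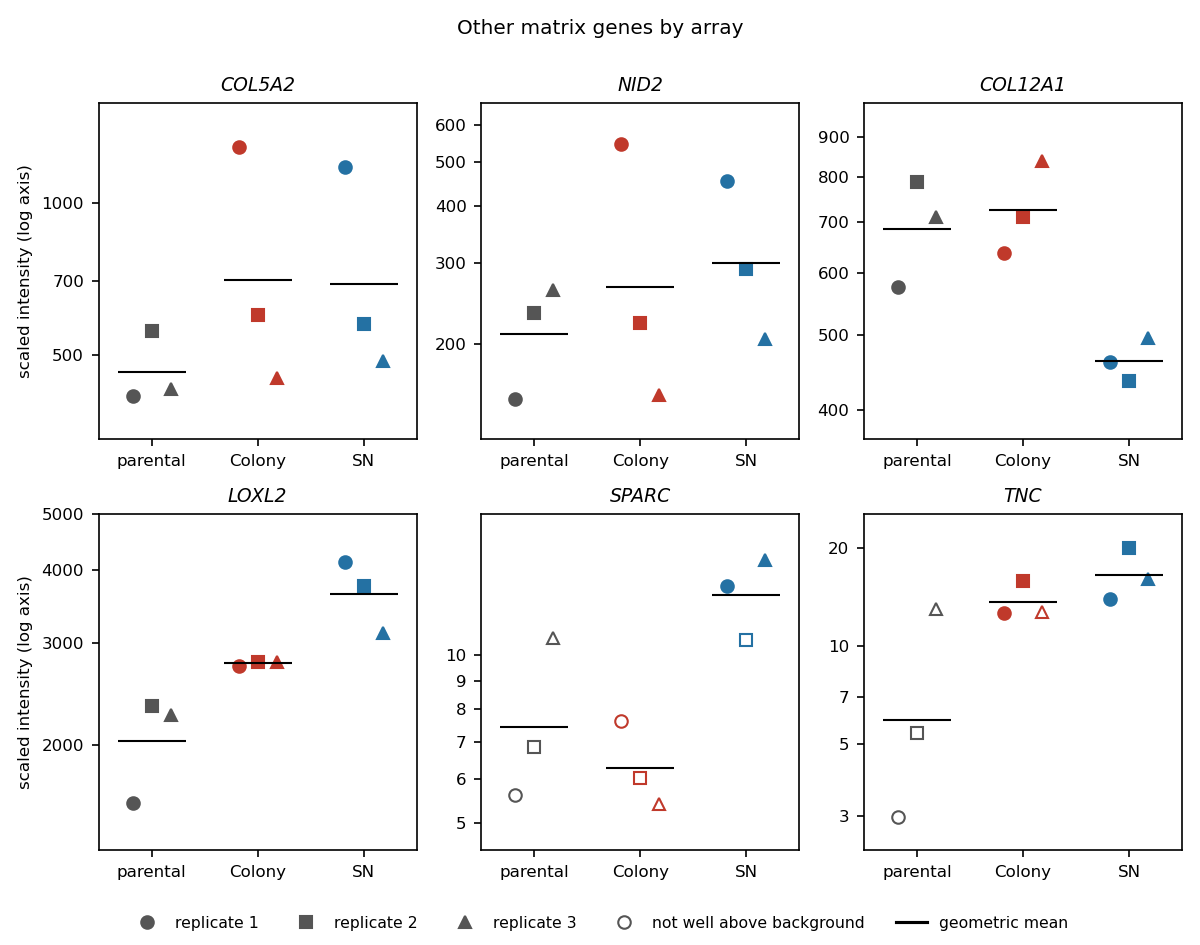
Scaled intensity (log axis, own range in each panel) of 6 further matrix genes on the 9 arrays. Symbols and bars are as in the plot of the collagen IV chains; COL5A2 and NID2 are highest on replicate 1 of both transduced groups, COL12A1 is lowest on the OSK-A549-SN arrays, LOXL2 is ordered parental A549, OSK-A549-Colony, OSK-A549-SN, and SPARC and TNC lie near background.

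Of the metalloproteinases, MMP1, the interstitial collagenase, was detected on no parental array (4.39, 3.49 and 5.31) and on all transduced ones. It read 78.6, 28.5 and 14.8 in OSK-A549-Colony and 49.3, 29.5 and 10.8 in OSK-A549-SN. Because the parental level has only an upper limit, MMP1 was at least 2.39-fold higher in OSK-A549-Colony (geometric means 32.1 and 4.33) and at least 1.86-fold higher in OSK-A549-SN (geometric mean 25.0). The limma adjusted p-values of 0.0462 and 0.0839 belong to the fitted differences from parental values below background and not to these bounds, and the gene was tested only because it was detected in the transduced groups. The spread within each transduced group was wide, and the groups differed by 0.36 with a 95% confidence interval of -1.65 to 2.37.

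Its neighbours in the gene cluster on chromosome 11 did not behave alike. MMP10, a stromelysin, was detected only on replicate 1 of each transduced group (19.2 and 16.4). MMP3, another stromelysin, was detected on none. MMP7, the matrilysin made by epithelial cells, read 5222, 4669 and 6630 in parental A549, 6114, 9254 and 10709 in OSK-A549-Colony, and 4423, 7551 and 6992 in OSK-A549-SN, with overlapping groups and log2 fold changes of 0.64 ± 0.25 and 0.18 ± 0.26 (limma adjusted p = 0.162 and 0.710). The starts of MMP10 and MMP7 are shown side by side because both hold a TATA box, a CCAAT box and an AP-1 motif while the genes differed in detection.
MMP10, chr11:102780629-102780878, minus strand: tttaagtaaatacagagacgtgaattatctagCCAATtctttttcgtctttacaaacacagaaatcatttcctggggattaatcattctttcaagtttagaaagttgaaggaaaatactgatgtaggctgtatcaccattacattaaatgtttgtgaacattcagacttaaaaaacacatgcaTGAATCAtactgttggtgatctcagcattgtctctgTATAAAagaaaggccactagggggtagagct
MMP7, chr11:102530748-102530997, minus strand: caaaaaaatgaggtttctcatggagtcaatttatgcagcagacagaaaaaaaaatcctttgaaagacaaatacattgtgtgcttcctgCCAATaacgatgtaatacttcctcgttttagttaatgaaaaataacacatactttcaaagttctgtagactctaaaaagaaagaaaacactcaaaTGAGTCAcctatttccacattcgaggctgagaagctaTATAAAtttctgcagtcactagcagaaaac

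MMP15, a metalloproteinase held in the cell membrane, read 401.2, 544.9 and 650.6 in parental A549, 362.6, 374.7 and 371.2 in OSK-A549-Colony, and 415.5, 512.7 and 408.3 in OSK-A549-SN. The OSK-A549-Colony arrays were the lowest of all, by 0.50 ± 0.19 on the log2 scale below parental A549 (limma adjusted p = 0.152) and 0.26 ± 0.11 below OSK-A549-SN (limma adjusted p = 0.286). MMP14, also a membrane enzyme, lay between 7.55 and 19.9 and was detected on 6 of the 9 arrays.

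The inhibitors TIMP1 and TIMP2 were detected on every array. TIMP1 read 2344, 2445 and 3639 in parental A549, 3551, 3533 and 3622 in OSK-A549-Colony, and 3435, 3624 and 2497 in OSK-A549-SN. TIMP2 read 2967, 4185 and 6105 in parental A549, 3898, 3698 and 3812 in OSK-A549-Colony, and 4651, 5773 and 3981 in OSK-A549-SN. Parental replicate 3 was the highest array for both genes, their groups overlapped against parental A549, and no fold change passed (limma adjusted p from 0.248 to 0.765). TIMP2 was lower on every OSK-A549-Colony array than on any OSK-A549-SN array, by 0.32 ± 0.15 (limma adjusted p = 0.310). TIMP3 was detected in OSK-A549-Colony replicate 3 alone, at 33.3.

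**Figure D4:**
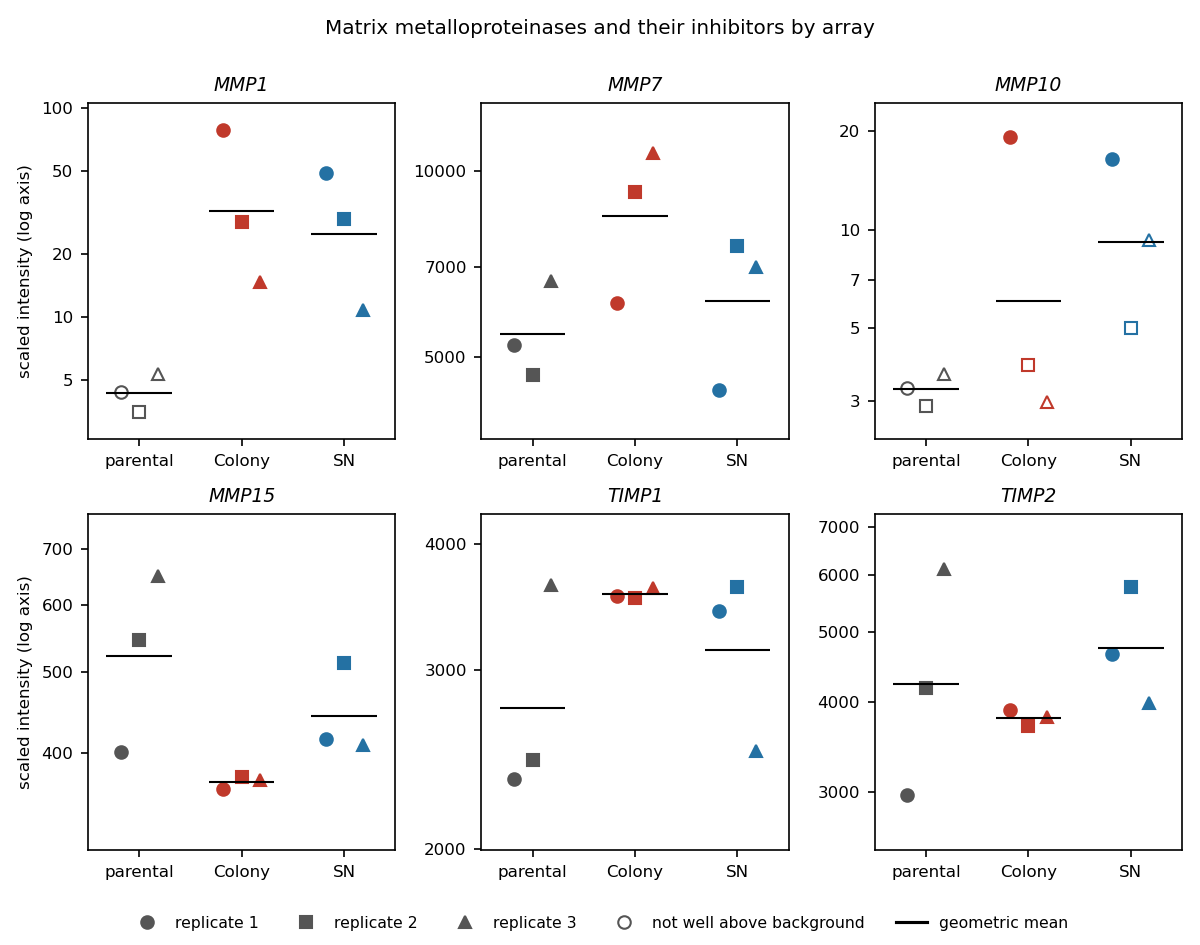
Scaled intensity (log axis, own range in each panel) of 4 metalloproteinases and 2 inhibitors on the 9 arrays. Symbols and bars are as in the plot of the collagen IV chains; MMP1 is at background in parental A549 and above it on all transduced arrays, MMP10 is above background on replicate 1 of each transduced group only, and the parental arrays of both inhibitors are spread widely.

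Several of these genes were highest in replicate 1 of both transduced groups. Among the 26 matrix genes detected on all 6 transduced arrays, 11 had their highest value in replicate 1 of OSK-A549-Colony and also of OSK-A549-SN (COL5A1, COL5A2, COL4A1, COL4A4, COL4A5, LAMA3, LAMA5, LAMB3, NID2, HSPG2 and MMP1), which is 42.3% beside 13.7% of the 14308 such genes on the array. The figures for replicate 2 were 7.69% beside 13.7% and for replicate 3 were 3.85% beside 10.3%. In COL5A2, NID2 and MMP1 the arrays within each group also spread over 2-fold. Of the 6 epithelial markers, EPCAM was highest in replicate 1 of both transduced groups, KRT7, KRT8, KRT18 and KRT19 were lowest in replicate 1 of OSK-A549-Colony, and KRT19 and CDH1 were lowest in replicate 1 of OSK-A549-SN. Replicates 1 and 3 of the transduced groups had the same passage number. Parental replicate 3 was the highest parental array for 17 of the 25 matrix genes measured on all arrays, 68.0% beside 55.5% of 13935 genes. Their part in the group differences was not tested beyond leaving out 1 array at a time. In RNA pooled from many cells, fewer cells of a type and less RNA per cell cannot be told apart.

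The calls rested on few arrays. Leaving out 1 of the 6 arrays of a comparison ended every one of these calls, unless that array was parental replicate 3. COL5A1 in OSK-A549-Colony had log2 fold changes of 1.38 to 1.84 and limma adjusted p-values of 0.0281 to 0.130, and COL4A1 of 0.95 to 1.23 and 0.0426 to 0.130; each stayed called only without parental replicate 3. MMP1 was called in none of the 6 (limma adjusted p from 0.0687 to 0.147). In OSK-A549-SN, COL5A1 (1.42 to 1.88, limma adjusted p 0.0313 to 0.185) stayed called only without parental replicate 3, and COL4A1 (0.91 to 1.12, 0.0634 to 0.191) and COL4A3 (-2.28 to -1.81, 0.0795 to 0.173) in none. With normexp, the log2 fold changes of COL5A1 and COL4A1 in OSK-A549-Colony were 0.97 and 0.80, both under the fold of 2. Their limma adjusted p-values there were 0.0128 and 0.00853, so only the fold threshold was missed. MMP1 was not called either (limma adjusted p = 0.0763).

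The wider list of 91 other matrix genes, with 73, 74 and 74 tested in the 3 comparisons, gave the surroundings of these values. Besides COL7A1, limma called EFEMP1, a fibulin-family glycoprotein, as higher in OSK-A549-Colony (log2 1.96 ± 0.30, limma adjusted p = 0.0283). PCOLCE, which enhances the trimming of procollagen, and FBLN5, which takes part in elastic fibre assembly, were called as lower, by limma, at -1.15 ± 0.20 (adjusted p = 0.0328) and -1.16 ± 0.15 (adjusted p = 0.0221). EFEMP2, a fibulin, had a log2 fold change of -1.18 and no call (limma adjusted p = 0.0618). These are 2 higher and 2 lower of 73, against 2.09% and 1.82% of all genes tested. None of the 74 was called in the other comparisons by limma, which gave 10 higher and 8 lower at an unadjusted p under 0.05 in OSK-A549-SN against parental A549, where all genes gave 12.8% and 9.68%. In OSK-A549-Colony against the spindle cells it gave 11 and 12, where all genes gave 10.5% and 10.3%. The highest in OSK-A549-SN without overlap were EFEMP1 (log2 1.62), ECM1 (1.29) and COL7A1 (0.93), with limma adjusted p-values of 0.0601, 0.0537 and 0.159, and ECM1 was the third in OSK-A549-Colony (1.09, limma adjusted p = 0.0582). The lowest were LOXL4 (-1.44), FN1, the fibronectin gene (-1.34), and FBLN5 (-1.11), with limma adjusted p-values of 0.160, 0.0701 and 0.0557. Between the transduced groups, CCN2 (1.14), CCN1 (0.99) and MATN2 (0.91) were the highest in OSK-A549-Colony and TGM2 (-0.92), FBLN1 (-0.89) and COL9A1 (-0.71) the lowest, with limma adjusted p-values of 0.105 to 0.147. The F test passed 14 of 75 genes of this list, against 12.7% of all genes.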

How the data were processed

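Total RNA from 9 A549 samples was hybridised to Agilent single-colour human arrays, 1 array per sample. The authors deposited the intensity of each spot from Agilent Feature Extraction 11.5.1.1, background-subtracted and not scaled between arrays, and a table of log2 values, which differs from the log2 intensities by 1 constant per array to within 0.001. Here the 4259 control spots and spots with an outlier flag (463 to 717 of 62976 per array) were left out, spots of a probe were averaged as log2 intensity, and the array's 75th percentile was subtracted. Saturation was flagged on none of the spots. Detection of a probe required that a share of 0.5 or more of its spots be positive, significant and well above background. Names came from RefSeq accessions through a table of human genes, which 30275 of 32065 probes with such an accession matched.

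Each comparison was fitted with limma 3.58.1 in R 4.3.3 (lmFit, eBayes) on its own 6 arrays, over probes detected on at least 1 of them, with Benjamini-Hochberg adjustment over all those probes, and the F test used all 9 arrays. The methods state that the arrayed RNA of all groups came from independent transduction experiments. The labels do not say which experiment or culture each array came from, and the p-values measure the spread between these arrays. The number of arrays limits the precision. Where a gene was detected on no array of the dimmer group, its fold is a bound: each dim array was raised to the lowest signal of a detected probe on it, unless the gene's own value was higher. The array annotation follows another genome build than the RefSeq table, so coordinates are given only for RefSeq promoters, 1 window per gene, the one listed first.

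Named with all values are the genes called or past the F test, per comparison up to 5 of the largest increases and decreases without overlap between groups and detected on every array of the brighter one, and their partner chains. Of the other matrix genes, those called and up to 3 increases and 3 decreases are named. From that list, 1 gene is not reported here. The genes, lists and rules were chosen with earlier results of these data known. The alternatives were normexp background correction (offset 50, on median brightness because the deposited intensity columns hold no mean), quantile normalization, no filter, a stricter filter, slide and replicate blocks, 1 fit of 9 arrays, the deposited log2 table, the mean over a gene's probes, unadjusted p-values, no fold threshold and leaving out each array.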

Additional observations from a re-analysis of the deposited data

How the results depend on the processing

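Of 366 fold changes of single named genes under the alternatives, 54 lost a call and 6 gained one. None reversed, but these genes were chosen with groups that do not overlap, so leaving out 1 array could not reverse them. The count of called matrix genes was less stable. For OSK-A549-Colony against parental A549 it was 3 and became 0 with normexp, 0 without a filter on dim probes, and 0 to 3 with 1 array left out, never with MMP1 among them. For OSK-A549-SN against parental A549 it was 3 and became 8 with unadjusted p-values, 0 without a filter, 5 when genes had to be well above background on all arrays of a group, 1 (MMP1) with slide as a block, and 0 to 1 with 1 array left out. The 8 include COL17A1, TNC, MMP1 and MMP10, which were detected on no parental array. With unadjusted p-values, 437 of the 16732 genes tested there were higher and 490 lower. Between the transduced groups the count of called matrix genes was 0 and became 2 (COL4A3 and, by a fitted value against a group where it was not detected, SPARC) with unadjusted p-values, where all genes gave 1.81%. It stayed at 0 to 0 with 1 array left out. For the F test it was 4 and became 11 with unadjusted p-values, 7 with normexp, 7 with the stricter filter, 8 with the mean over a gene's probes, and 0 to 6 with 1 array left out, 0 of them without parental replicate 2 and 2 without OSK-A549-Colony replicate 2 or OSK-A549-SN replicate 2. Fewer arrays and more probes to adjust over are part of the construction of these alternatives, and other causes were not tested.

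The median log2 fold change of the matrix genes in OSK-A549-Colony moved from 0.28 to 0.15 with normexp, 0.03 without a filter, 0.08 with the stricter filter and 0.34 with the mean over probes, and lay between 0.08 and 0.39 with 1 array left out. In OSK-A549-SN it lay between 0.08 and 0.39 as well. Between the transduced groups it changed sign, from 0.06 to -0.14 with slide as a block, and lay between -0.14 and 0.12 with 1 array left out. Slide 2 held OSK-A549-SN replicate 3 alone, so this block could not be fitted for OSK-A549-Colony against parental A549.

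With the replicate number as a block, 0 genes were called in OSK-A549-Colony, 0 in OSK-A549-SN and 0 between the transduced groups, and 2 passed the F test. Deviations of same-numbered arrays from their group means were correlated over 23758 probes. The correlations were -0.05 to -0.01 between OSK-A549-Colony and parental A549 and -0.20 to 0.15 between OSK-A549-SN and parental A549. Between the transduced groups they were 0.07 to 0.24, all positive, and same-numbered arrays of these groups shared a passage number. The labels do not say that the numbers pair arrays, so the main fits left them unpaired. Variation shared by such pairs would stay in the error of the comparison between the transduced groups.

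For COL4A3, which was near background, normexp moved the log2 fold change in OSK-A549-SN from -1.97 to -0.66, and MMP1 in OSK-A549-Colony lost its call (limma adjusted p = 0.0763).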
